A study of Mus musculus with 2 samples.

Results

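Messenger RNA of 10 genes of prostaglandin and leukotriene synthesis and reception was followed across the cell types of a treated mouse tumour. The genes were listed by symbol: the cyclooxygenases Ptgs1 and Ptgs2, the synthases Ptges and Hpgds, the prostaglandin E2 receptors Ptger2 and Ptger4, and Alox5, Alox5ap, Ltc4s and Alox15 of the lipoxygenase branch. All 10 were found among the 33696 genes of the count table. The study profiled single cells from subcutaneous tumours of 4T1, a mouse mammary carcinoma line, in animals of wild-type genotype. It had 2 libraries of Chromium 3′ v3 chemistry, 1 from tumours labelled PBS (control) and 1 from tumours labelled PCN. The design text names the agent PATCH, and neither name is spelled out in the labels. Age, sex, dose, time and the number of animals are not given there. The values below describe the treated library alone. The control counts are not analysed here and no treatment effect was measured.

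Eicosanoids are signalling lipids made from arachidonic acid, which phospholipases release from membranes. Cyclooxygenases turn it into the prostaglandin precursor PGH2, and terminal synthases then make single products, among them PGE2, PGD2, prostacyclin and thromboxane. In the other main branch 5-lipoxygenase, with the help of its activating protein FLAP, makes leukotriene A4, which is processed to the neutrophil attractant leukotriene B4 or to cysteinyl leukotrienes. In tumours PGE2 is best known for dampening lymphocytes and shaping myeloid cells through the receptors EP2 and EP4.

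The treated library held 12309 barcodes, of which the authors kept 10835 cells with 500 to 19989 UMIs and a median of 3575. A UMI (unique molecular identifier) counts 1 captured RNA molecule. Cells were put into classes by the share of their UMIs that fell on a few defining genes. The rule gave 4672 macrophages (43.1% of kept cells), 3518 neutrophils (32.5%), 325 fibroblasts (3.0%), 322 tumour cells (2.97%) and 238 T or NK cells (2.20%), and 1760 cells (16.2%) met no rule. For each of the 5 classes, 6 of 6 marker genes that the rule did not use were higher there than in the other classes. Unclassified cells were left out of this comparison. Median depth differed widely, from 1698 UMIs in neutrophils and 2916.5 in T or NK cells to 7168.5 in macrophages, 11176.5 in tumour cells and 11662 in fibroblasts. Levels are therefore given as CPM, in which the UMIs of a gene are summed over a class and scaled to a fixed total. The neutrophil marker Mmp9 was at 1081 CPM in unclassified cells, above the 622 CPM in neutrophils. Every other neutrophil marker was lower in unclassified cells than in neutrophils. Retnlg was at 76.9 against 6022 CPM, Clec4d at 354 against 1291 and Il1r2 at 164 against 1202. Cxcr2 was at 19.6 against 305 CPM and Cd177 at 6.32 against 176. Shares of cells with a UMI are given after each cell was thinned to 1000 UMIs, and also without thinning. With 1 library there was no test across samples, and all 95% intervals (exact Poisson, conditional or Clopper-Pearson) cover counting error only.

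Macrophages carried the widest set of these genes. Set against all other kept cells, macrophages had at least 2-fold higher levels of 5 of the 10 genes (Ptgs1, Ptger4, Alox15, Ltc4s and Hpgds), where 6.58% of 16445 measured genes were that much higher. Alox15 reached the minimum of 20 UMIs only through macrophages, which held 158 of its 164 UMIs. Its place in this count was therefore all but set by that minimum and adds no weight. Neutrophils had 2 of 10 (Alox5 and Alox5ap) against 10.1% of all genes. Fibroblasts had 1 of 10 (Ptges) against 19.9%, and tumour cells also had 1 of 10 (Ptges) against 26.5%, both near the background. T and NK cells had 0 of 10 against 21.2% of all genes. In the other direction, 9 of 10 genes were at 0.5-fold or less in fibroblasts and in tumour cells, 8 in T or NK cells, 5 in neutrophils and 1 (Ptges) in macrophages. The share of all genes at 0.5-fold or less was 24.2% in fibroblasts, 25.2% in tumour cells, 22.6% in T or NK cells, 58.4% in neutrophils and 25.6% in macrophages. The median log2 ratio of the 10 genes was 0.71 in macrophages, where that of all genes was -0.15. It was -1.38 against -1.37 in neutrophils, -2.87 against -0.07 in fibroblasts, -4.21 against 0.21 in tumour cells and -3.39 against 0.12 in T or NK cells.

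**Figure D1:**
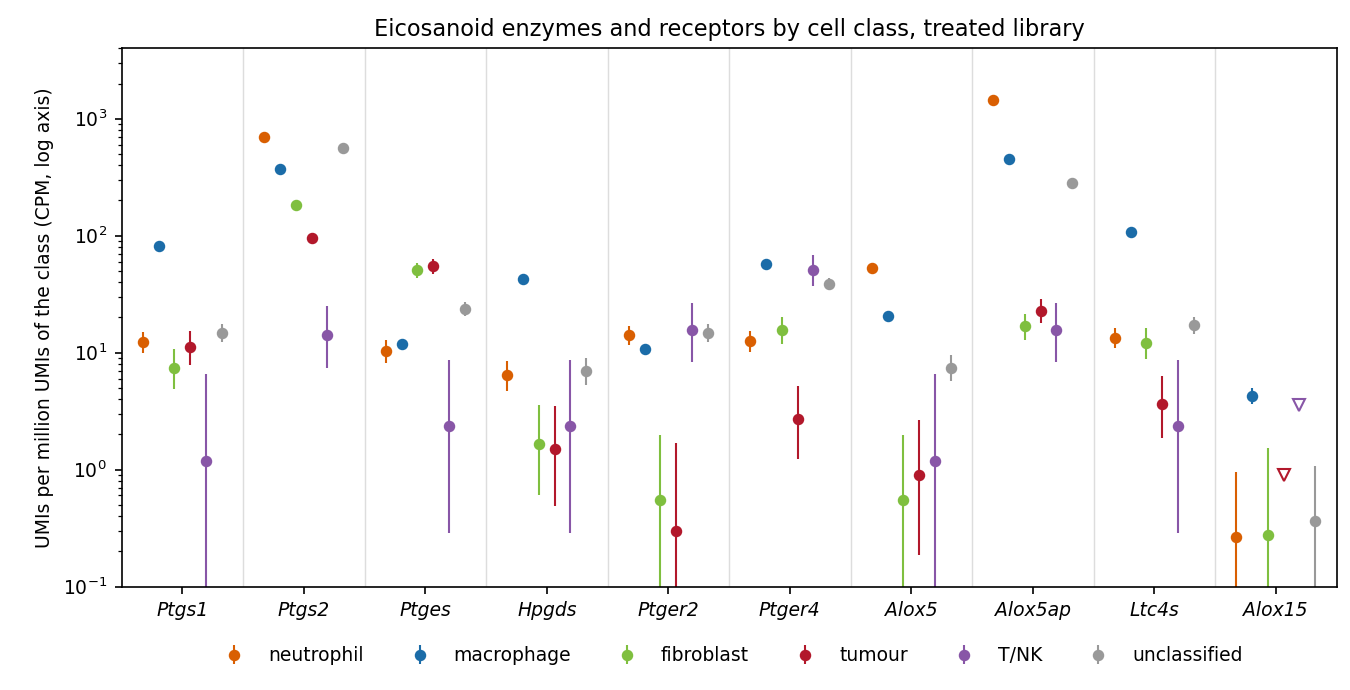
Level of each of the 10 genes in each cell class of the treated library, in CPM on a log axis. Points are sums over the cells of a class, bars are exact 95% Poisson intervals (cut at the axis), and open triangles mark the level of 3 counts where none was found; macrophages lead for Ptgs1, Hpgds, Ltc4s and Alox15, and neutrophils for Ptgs2, Alox5 and Alox5ap.

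The 2 cyclooxygenases had different main sources. Ptgs1 (ENSMUSG00000047250), the constitutive form COX-1, came mainly from macrophages. It stood at 82.1 CPM in macrophages, 14.8 in unclassified cells, 12.4 in neutrophils, 11.1 in tumour cells, 7.41 in fibroblasts and 1.19 in T or NK cells. Macrophages held 91.6% of its 3325 UMIs, while they held 61.1% of the UMIs of all genes. Their level was 6.91-fold that of all other cells (95% interval 6.11 to 7.84). After thinning, 5.95% of macrophages had a Ptgs1 UMI (5.28% to 6.68%) and 0 of 229 T or NK cells did, which allows a share of up to 1.60% there. Without thinning the macrophage share was 28.9%.

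Ptgs2 (ENSMUSG00000032487), the inducible form COX-2, was spread over most classes. Neutrophils had 691 CPM, unclassified cells 562, macrophages 369, fibroblasts 182, tumour cells 94.7 and T or NK cells 14.3. None of these 6 intervals overlapped another. The neutrophil level was 1.90-fold that of all other cells (1.84 to 1.96). Macrophages, with more and deeper cells, still held 55.9% of the 24517 UMIs, and neutrophils held 21.2%. A Ptgs2 UMI was present in 39.1% of thinned neutrophils, 22.6% of macrophages, 11.2% of fibroblasts, 8.27% of tumour cells and 2.18% of T or NK cells. The last share, in lymphocytes at a median of 2916.5 UMIs, is given as the reference for the enzymes. Free RNA itself was not measured. Without thinning the shares were 50.3% of neutrophils, 47.1% of macrophages and 3.78% of T or NK cells.

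**Figure D2:**
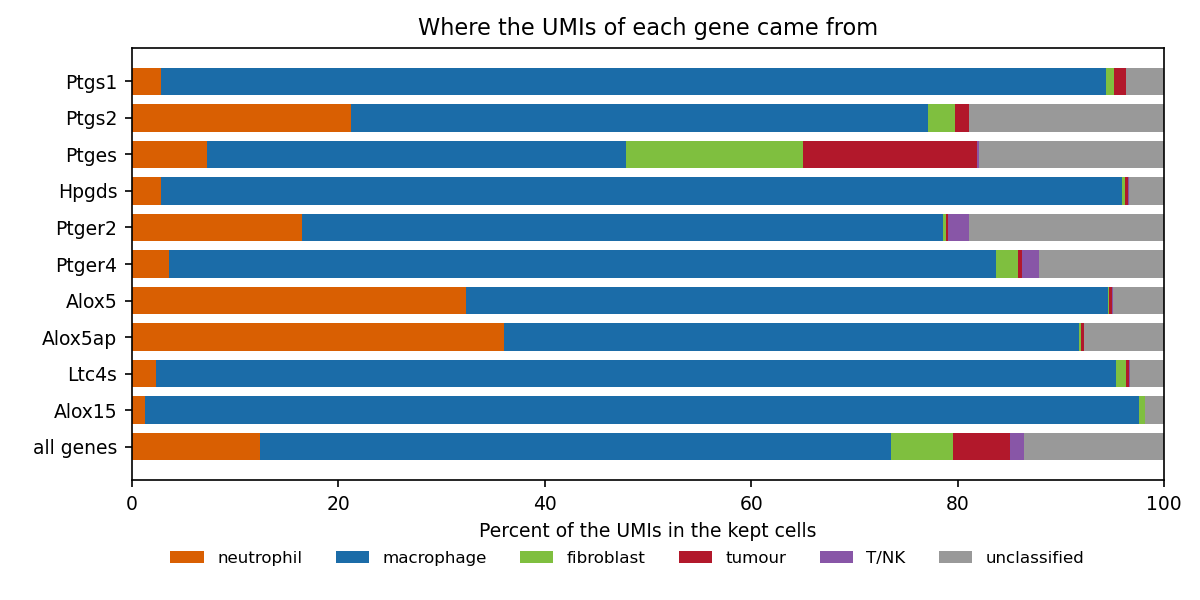
Percent of each gene's UMIs in the kept cells that came from each class, with all genes in the lowest bar. Macrophages supplied 91.6% of Ptgs1 and 93% of Ltc4s but 40.6% of Ptges, against 61.1% of the UMIs of all genes.

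The stretches of 250 bases before the start of Ptgs2, Ptgs1 and Hpgds are shown because Ptgs1 and Hpgds peaked in the same macrophages and Ptgs2 did not. They come from RefSeq promoters of GRCm38.p6. The build behind the count table is not given in the sources used here. Capitals mark matches to any of 6 motifs, searched on both strands: the CRE core ACGTCA, the E-box CACGTG, the C/EBP palindrome TTGCGCAA, the PU.1 core GAGGAAG, the AP-1 site TGANTCA and TATAAA.
Ptgs2, chr1:150099781-150100030, plus strand: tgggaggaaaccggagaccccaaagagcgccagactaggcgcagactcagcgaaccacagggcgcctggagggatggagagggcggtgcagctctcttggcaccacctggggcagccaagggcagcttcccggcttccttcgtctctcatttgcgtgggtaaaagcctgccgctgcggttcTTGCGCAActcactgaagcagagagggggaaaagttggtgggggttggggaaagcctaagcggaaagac
Ptgs1, chr2:36230176-36230425, plus strand: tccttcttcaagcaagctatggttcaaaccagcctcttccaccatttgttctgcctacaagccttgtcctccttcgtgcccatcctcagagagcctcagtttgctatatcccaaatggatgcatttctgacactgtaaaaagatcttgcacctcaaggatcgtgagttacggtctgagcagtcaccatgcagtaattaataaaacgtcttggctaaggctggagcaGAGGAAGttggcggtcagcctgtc
Hpgds, chr6:65144731-65144980, minus strand: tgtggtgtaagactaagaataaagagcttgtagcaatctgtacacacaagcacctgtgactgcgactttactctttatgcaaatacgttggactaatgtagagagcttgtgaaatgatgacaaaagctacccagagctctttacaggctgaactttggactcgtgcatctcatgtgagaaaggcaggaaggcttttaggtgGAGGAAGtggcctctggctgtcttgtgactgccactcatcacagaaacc
Ptgs2 had the C/EBP palindrome 69 to 62 bases before its start, letters that 46 of 27025 promoters (0.17%) hold in the same window. Ptgs1 had the PU.1 core 24 to 18 bases before its start and Hpgds 49 to 43 bases before. That motif is held by 10.4% of all promoters. Of the 8 genes searched only these 2 held it. Ltc4s and Ptger4, which were also higher in macrophages, were searched and did not. CACGTG is held by 6.05% of promoters, ACGTCA by 6.56%, TGANTCA by 6.87% and TATAAA by 13.0%, and none of these letters were in the windows of the 8 genes with a RefSeq entry. Alox5ap and Alox15 had no entry in the table. Positions count from the annotated RefSeq start, and bases after that start were not searched. A gene without a match in its window may therefore hold the letters elsewhere. A match describes letters only, and factor binding was not measured.

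Ptges (ENSMUSG00000050737), the microsomal synthase that turns PGH2 into PGE2, was highest outside the leukocytes. Tumour cells had 54.7 CPM (47.0 to 63.2) and fibroblasts 50.8 (43.7 to 58.7), and these intervals overlapped. Unclassified cells followed at 23.6, macrophages at 11.8, neutrophils at 10.4 and T or NK cells at 2.38. The tumour level was 3.49-fold (2.96 to 4.10) and the fibroblast level 3.24-fold (2.75 to 3.79) that of all other cells. After thinning, 4.68% of tumour cells and 5.94% of fibroblasts had a Ptges UMI, against 1.27% of macrophages, 0.904% of neutrophils and 0 of 229 T or NK cells. At a deeper thinning to 5000 UMIs, chosen after the data were seen, 23.3% of 240 tumour cells and 18.9% of 265 fibroblasts had one, and 5.59% of 3148 macrophages. Because macrophages were many, they still supplied 40.6% of the 1080 UMIs, fibroblasts 17.1% and tumour cells 16.9%.

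Hpgds (ENSMUSG00000029919), the haematopoietic synthase of PGD2, followed Ptgs1 into the macrophages. It stood at 42.7 CPM there, 6.92 in unclassified cells, 6.38 in neutrophils, 2.38 in T or NK cells, 1.65 in fibroblasts and 1.5 in tumour cells. The macrophage level was 8.52-fold that of all other cells (7.06 to 10.4), a log2 ratio of 3.09 that was 2.42 as a mean over cells. A UMI was found in 3.54% of thinned macrophages and 0.437% of T or NK cells, and in 20.2% of macrophages without thinning. Mast cells are a textbook source of Hpgds and Ltc4s. The summed level of 6 mast cell markers was 2.99 CPM in macrophages, 12.2 in neutrophils, 21.4 in T or NK cells and 23.9 in unclassified cells. Kit alone gave 20.3 CPM in unclassified cells. Ms4a2, which encodes a chain of the mast cell IgE receptor, had 2 UMIs in macrophages and 2 in unclassified cells.

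Ptger4 (ENSMUSG00000039942), the PGE2 receptor EP4, was at 56.7 CPM in macrophages (54.3 to 59.2) and 51.1 in T or NK cells (37.0 to 68.9), so these neighbours did not differ beyond counting error. Unclassified cells had 38.7, fibroblasts 15.6, neutrophils 12.6 and tumour cells 2.70. Ptger2 (ENSMUSG00000037759), the receptor EP2, was at 15.5 CPM in T or NK cells (8.23 to 26.4), 14.8 in unclassified cells, 14.1 in neutrophils (11.5 to 17.0) and 10.8 in macrophages (9.78 to 11.9). The T or NK interval held the macrophage one and the neutrophil interval overlapped it, so the order of these classes was not resolved. Fibroblasts had 0.549 CPM of Ptger2 and tumour cells 0.301, from 2 UMIs and 1 UMI. After thinning, Ptger4 UMIs were present in 6.55% of T or NK cells, 5.49% of macrophages and 0.36% of tumour cells, the class given as the reference for receptors. Without thinning, 27.4% of macrophages, 16.0% of T or NK cells and 2.80% of tumour cells had a Ptger4 UMI. For Ptger2 the thinned shares were 1.75% of T or NK cells, 1.67% of neutrophils, 1.05% of macrophages and 0 of 278 tumour cells (at most 1.32%), and the unthinned shares were 4.20%, 2.81%, 7.86% and 0.311%. UMIs of both receptors were found together in 132 of 4672 macrophages and in 3 of 238 T or NK cells. In small sets of cells marked by other genes, Ptger4 was at 101 CPM in 70 cells with B cell genes (19 UMIs) and at 169 CPM in 17 cells with dendritic cell genes (20 UMIs).

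Genes for the first steps of the leukotriene branch were higher in neutrophils than in any other class. Alox5 (ENSMUSG00000025701), 5-lipoxygenase, was at 52.6 CPM in neutrophils, 20.5 in macrophages and 7.41 in unclassified cells. T or NK cells, tumour cells and fibroblasts had 1.19, 0.902 and 0.549 CPM, from 1, 3 and 2 UMIs. Alox5ap (ENSMUSG00000060063), which encodes FLAP, was at 1445 CPM in neutrophils, 454 in macrophages and 284 in unclassified cells, and between 15.5 and 22.8 CPM in the other 3 classes. Neutrophil levels were 3.37-fold (2.98 to 3.81) those of all other cells for Alox5 and 3.98-fold (3.89 to 4.07) for Alox5ap. With the other classes at equal weight, so that macrophages did not dominate them, the log2 ratios were 3.06 and 3.19 in place of 1.75 and 1.99. Thinned neutrophils had an Alox5ap UMI in 58.4% of cells and an Alox5 UMI in 4.35%, and macrophages in 35.8% and 1.69%. The shares in T or NK cells were 0.437% for either gene. Unthinned neutrophil shares were 67.5% and 8.95%. In absolute numbers macrophages still supplied 62.2% of Alox5 and 55.7% of Alox5ap UMIs.

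Ltc4s (ENSMUSG00000020377), which joins leukotriene A4 to glutathione and so starts the cysteinyl leukotrienes, was concentrated in macrophages. The level was 107 CPM there, 17.2 in unclassified cells, 13.4 in neutrophils, 12.1 in fibroblasts, 3.61 in tumour cells and 2.38 in T or NK cells. Macrophages exceeded all other cells 8.38-fold (7.45 to 9.46) and held 93% of the 4271 UMIs. A UMI was present in 7.36% of thinned macrophages and 0 of 229 T or NK cells, and in 27.9% of macrophages without thinning.

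Alox15 (ENSMUSG00000018924), a 12/15-lipoxygenase known from resident macrophages and eosinophils, was rare. It had 164 UMIs in 58 of 10835 cells, and 158 of these UMIs were in macrophages at 4.26 CPM. Neutrophils had 0.266 CPM, fibroblasts 0.275 and unclassified cells 0.364. Tumour cells and T or NK cells had no UMI, where 3 counts would be 0.902 and 3.57 CPM and the exact upper limits are 1.11 and 4.39 CPM. The 10 cells with most UMIs held 53.7% of all Alox15 UMIs, and 1 cell held 26. The eosinophil granule genes Epx and Prg2 had 1 and 0 UMIs in macrophages, and the 5 eosinophil markers summed to 2.10 CPM there. In thinned macrophages 0.176% had a UMI (0.0759% to 0.346%), and 1.11% did without thinning.

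Neutrophils split by fixed gene shares showed opposite orders of Ptgs2 and Alox5ap. Of 3518 neutrophils, 1283 had at least 0.3% of UMIs on Retnlg, Mmp8 and Ngp, genes of neutrophil granules and of circulating neutrophils. Of the rest, 541 had at least 1% on the chemokine genes Ccl3 and Ccl4, 1647 met no rule and 47 had interferon-induced genes. Ptgs2 was at 263 CPM in the Retnlg set (247 to 281), 964 in the cells that met no rule (928 to 1001) and 1437 in the Ccl3 set (1363 to 1513). Alox5ap ran the other way, at 2249, 821 and 395 CPM. The Ccl3 set thus had 5.45-fold the Ptgs2 level of the Retnlg set (5.02 to 5.93) and 0.18-fold its Alox5ap level (0.16 to 0.19). The median depth of the Ccl3 set, 1733 UMIs, was lower than the 2223 of the Retnlg set. After thinning, 62.4% of the Ccl3 set and 20.2% of the Retnlg set had a Ptgs2 UMI, and 30.3% and 80.2% an Alox5ap UMI.

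**Figure D3:**
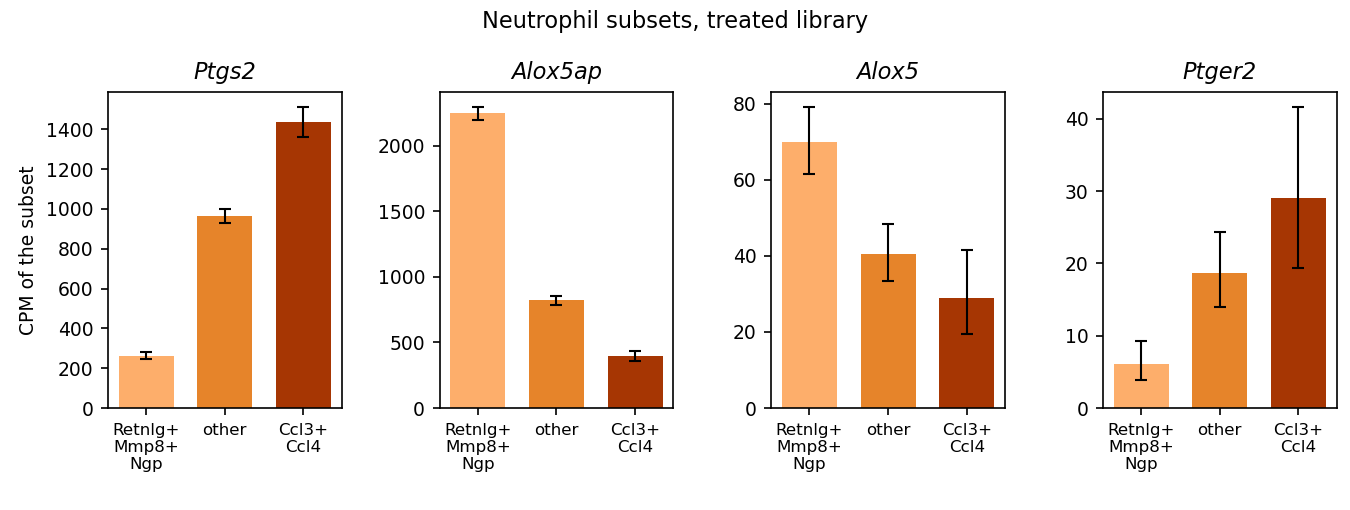
CPM of 4 genes in 3 neutrophil subsets defined by other genes (linear axes from 0, bars with exact 95% Poisson intervals). Ptgs2 goes from 263 in the Retnlg set to 1437 in the Ccl3 set while Alox5ap goes from 2249 to 395.

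Smaller genes followed one or the other order. Alox5 was at 70.0, 40.4 and 29.0 CPM in the Retnlg set, the cells that met no rule and the Ccl3 set, so its order was that of Alox5ap, and the intervals of the last 2 overlapped. Ptger2 was at 6.11, 18.6 and 29.0 CPM, the order of Ptgs2, and was 4.75-fold higher in the Ccl3 set than in the Retnlg set (2.63 to 8.67). Ptges, Ltc4s, Hpgds and Ptger4 had 4 to 17 UMIs each in the Ccl3 set, and their ratio intervals included 1. Among genes outside the 10 and named after their values were seen, Anxa1, a glucocorticoid-regulated inhibitor of phospholipase activity, was at 94.0 CPM in the Ccl3 set and 1670 in the Retnlg set. Ltb4r1, the high-affinity leukotriene B4 receptor, was at 92.0 and 195 CPM. The opposite orders were also seen cell by cell. Among 2987 neutrophils thinned to 1000 UMIs, 30.8% of those with an Alox5ap UMI had a Ptgs2 UMI, and 50.7% of those without. Within the Retnlg set these shares were 17.6% and 30.7%. Within the cells that met no rule they were 43.7% (39.9% to 47.7%) and 51.7% (47.9% to 55.6%). Within the Ccl3 set they were 57.0% (48.5% to 65.3%) and 64.7% (59.3% to 69.9%), whose intervals overlapped. In percentage points the gap within each of these sets was smaller than that over all neutrophils.

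Macrophages were as varied. Fixed gene shares picked 447 cells with Cd163, Folr2 and Lyve1 (markers of resident, perivascular macrophages), 411 with Arg1, 687 with the monocyte genes Ccr2, Vcan and Ly6c2, 110 with Inhba, Nos2 and Slc7a2, and 81 with Cxcl9, Cxcl10 and Rsad2. A set of 467 cells with Cx3cr1, Adamdec1 and Trf was added after values were seen. A further 22 had Ctsk and Acp5, and 2907 met no fixed subset rule, the 467 Cx3cr1 cells among them. Such sets are ranges, not types. Without cells whose share lay within 25% of the threshold, 319 of 447 Cd163 cells, 277 of 411 Arg1 cells, 522 of 687 Ccr2 cells, 76 of 110 Inhba cells and 330 of 467 Cx3cr1 cells remained.

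Ptgs2 differed many times over between these sets. It was at 1265 CPM in the Inhba set, 719 in the Ccr2 set, 616 in the Arg1 set, 434 in the Cxcl9 set, 322 in the Cx3cr1 set and 40.8 in the Cd163 set. The Cd163 set had 0.10-fold the level of all other macrophages (0.09 to 0.12), and the Inhba set 3.61-fold (3.39 to 3.85). At 5000 UMIs, 88.7% of 71 Inhba cells and 12.0% of 274 Cd163 cells had a Ptgs2 UMI. The Ccl3 neutrophils, for comparison, were at 1437 CPM.

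The Cd163 set had the highest CPM of Ltc4s and Alox5 among these sets. Its Ltc4s level was 274 CPM against 91.6 in other macrophages, 3.0-fold (2.77 to 3.23), and its Alox5 level was 51.6 against 17.7, 2.92-fold (2.44 to 3.48). All neutrophils together were at 52.6 CPM of Alox5. Alox5ap was at 600 CPM, 1.36-fold other macrophages, and was highest in the Ccr2 set at 683. Ptgs1 in the Cd163 set was 19.3 CPM, 0.22-fold other macrophages (0.17 to 0.28), and Ptges was 5.70 CPM from 18 UMIs. Both cyclooxygenases were thus low in the set where Ltc4s and Alox5 were highest. Pla2g4a, the cytosolic phospholipase that releases arachidonic acid, was at 50.3 CPM in the Cd163 set, 0.38-fold other macrophages, and at 281 CPM in the Inhba set.

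Ptgs1 and Hpgds both peaked in the Cx3cr1 set. Ptgs1 was at 204 CPM against 62.6 in other macrophages, 3.26-fold (3.02 to 3.52), and 60.6% of 404 such cells had a UMI at a depth of 5000. Hpgds was at 110 CPM against 31.9, 3.45-fold (3.11 to 3.83), with a UMI in 40.3% of these cells. Ltc4s was at 197 CPM there, 2.12-fold other macrophages. At 5000 UMIs 49.8% of Cx3cr1 cells (44.8% to 54.7%) and 44.9% of Cd163 cells (38.9% to 51.0%) had an Ltc4s UMI, with overlapping intervals, although the Cd163 set had the higher CPM. In the Cx3cr1 set Alox15 was at 11.5 CPM from 59 UMIs. As the set was chosen after values were seen, these ratios are descriptions. Arg1 cells had Ptgs1 at 110 CPM and Ptges at 23.6 CPM, 2.23-fold other macrophages (1.74 to 2.83), but Hpgds at 19.7. Alox15 was at 21.3 CPM in the Inhba set, from 17 UMIs, and had no UMI in the Cd163 or the Ccr2 set. Over these 6 sets Ptger4 lay between 36.7 CPM in the Arg1 set and 84.3 in the Cxcl9 set.

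**Figure D4:**
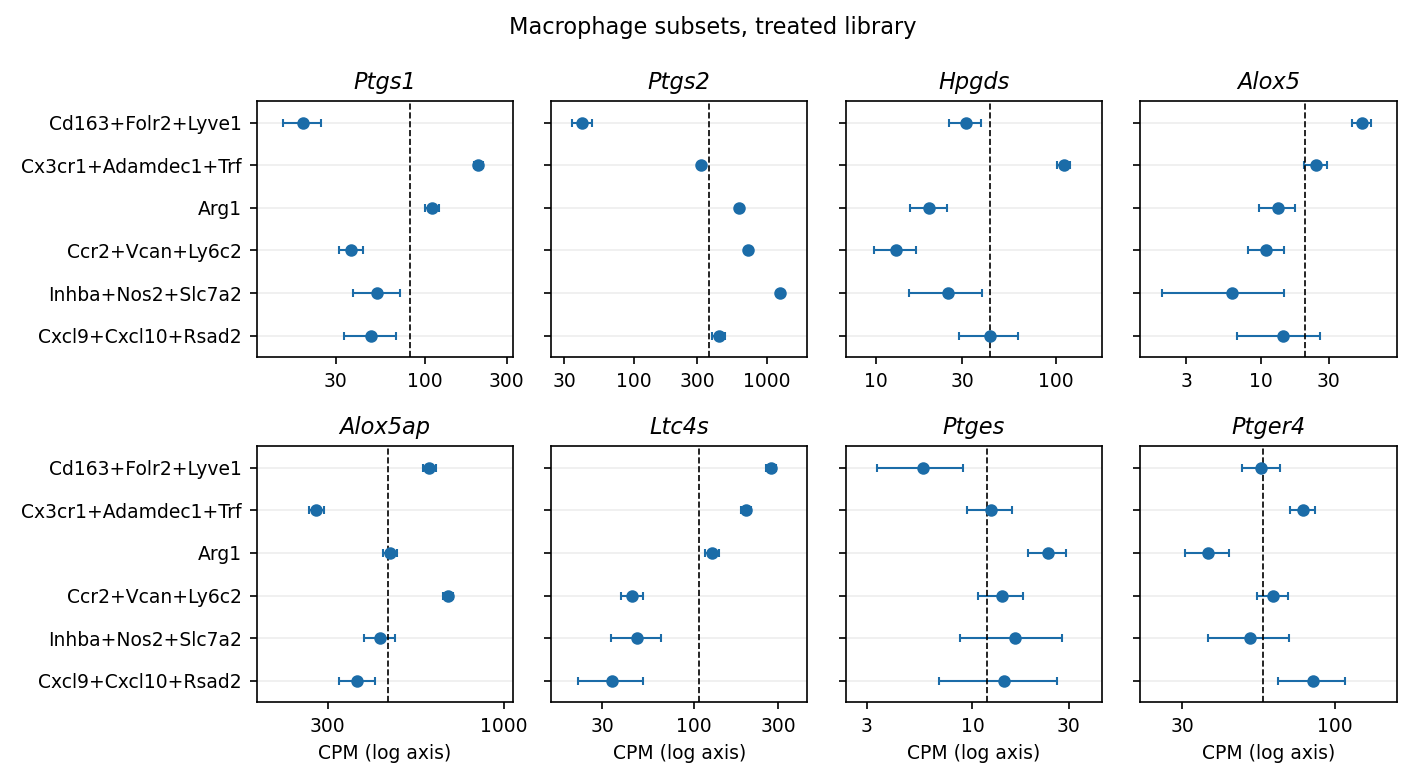
CPM of 8 genes (log axes) in 6 macrophage subsets defined by other genes, with exact 95% Poisson intervals and the level of all macrophages as a dashed line. The Cd163 set is lowest for Ptgs1 and Ptgs2 and highest for Alox5 and Ltc4s, and the Cx3cr1 set is highest for Ptgs1 and Hpgds; macrophages outside these sets are not drawn.

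Consecutive enzymes were then looked for in the same cell. Alox5 and Alox5ap were found together in 535 of 4672 macrophages (11.5%) and 256 of 3518 neutrophils (7.28%), but at equal depth in 2.75% of neutrophils and 0.571% of macrophages. With Ltc4s added, 310 macrophages (6.64%) and 6 neutrophils had all 3, and at equal depth 5 of 4552 macrophages and 1 of 2987 neutrophils did. In neutrophils thinned to 1000 UMIs, 4.70% of 1744 with an Alox5ap UMI had an Alox5 UMI (3.76% to 5.80%). So did 3.86% of 1243 without one (2.86% to 5.09%), and these intervals overlapped. Among macrophages thinned to 5000 UMIs, 48.1% of the 268 with an Alox5 UMI had an Ltc4s UMI (42.0% to 54.3%), and 22.5% of the 2880 without (21.0% to 24.1%). For Hpgds these shares were 25% of 807 cells with a Ptgs1 UMI and 12.6% of 2341 without. Such a difference was not limited to consecutive enzymes. Ltc4s, of the other branch, had a UMI in 36.6% of the cells with a Ptgs1 UMI and 20.6% of those without. Macrophages were not split by subset for these shares. In CPM, Alox5 and Ltc4s were both highest in the Cd163 set, and Ptgs1 and Hpgds in the Cx3cr1 set. Ptgs2 ran against Ltc4s, with a UMI in 37.3% of Ltc4s cells and 49.0% of the others. Ptges was found in 7.31% of macrophages with a Ptgs2 UMI and 4.12% of those without. In tumour cells Ptges was found in 22.1% of 68 cells with a Ptgs2 UMI and 23.8% of 172 without, and in fibroblasts in 17.6% of 91 and 19.5% of 174, with overlapping intervals in both classes. Ptgs2 and Ptges were found together in 71 of 325 fibroblasts (21.8%) and 48 of 322 tumour cells (14.9%) without thinning.

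The other 45 genes listed for the pathway showed where precursors, products and receptors were placed, and 36 of them had enough UMIs to be compared. In macrophages 7 were at least 2-fold higher and 12 at 0.5-fold or less, in neutrophils 7 and 21, in fibroblasts 10 and 11, in tumour cells 5 and 21 and in T or NK cells 7 and 16. The shares of all genes that much higher or lower were 6.58% and 25.6% in macrophages, 10.1% and 58.4% in neutrophils, 19.9% and 24.2% in fibroblasts, 26.5% and 25.2% in tumour cells and 21.2% and 22.6% in T or NK cells. Macrophages led for Tbxas1, the thromboxane synthase, at 303 CPM (4.35-fold, 4.13 to 4.59), for Prxl2b, a prostamide and prostaglandin F synthase, at 35.8 CPM and for Cysltr1, a cysteinyl leukotriene receptor, at 54.3 CPM. UMIs of Ptgs1 and Tbxas1 were found together in 1127 macrophages (24.1%). Platelets are a textbook source of both genes. The platelet gene Gp9 had 0 UMIs in every class and Gp1bb and Itga2b had 1 and 36 UMIs in macrophages, whereas Ppbp had 1399 and Pf4 103081. The 5 platelet markers summed to 2819 CPM in macrophages and 1222 in unclassified cells. In neutrophils Cyp4f18, which breaks down leukotriene B4, was at 422 CPM (14.4-fold, 13.5 to 15.3), Fpr2, a receptor for lipoxin A4 and annexin A1, at 165 CPM and Ltb4r1 at 156 CPM. Lta4h, the hydrolase that makes leukotriene B4, was lower in neutrophils at 18.2 CPM than in macrophages at 28.3. Macrophages were not its leading class, since T or NK cells had at least 2-fold the level of all other kept cells.

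Stromal and tumour cells held other parts. Slco2a1, the transporter that takes up prostaglandins, was at 610 CPM in tumour cells (584 to 638) and at 22.2 CPM or less in every other class. A UMI of it was present in 39.6% of thinned tumour cells. Hpgd, the dehydrogenase that inactivates prostaglandins after uptake, had no UMI in the 322 tumour cells (exact upper limit 1.11 CPM) and was at 26.6 CPM in fibroblasts. At 5000 UMIs, 87.5% of 56 tumour cells with a Ptges UMI and 85.9% of 184 without had an Slco2a1 UMI. Fibroblasts led for Ptgis, the prostacyclin synthase, at 56.0 CPM, for the prostaglandin F receptor Ptgfr at 31.8, for the EP3 receptor Ptger3 at 15.1 and for Ggt5, which converts leukotriene C4 to D4, at 75.5. In T or NK cells the second cysteinyl leukotriene receptor, Cysltr2, was at 70.2 CPM, from 59 UMIs, and at 3.28 CPM or less elsewhere.

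**Figure D5:**
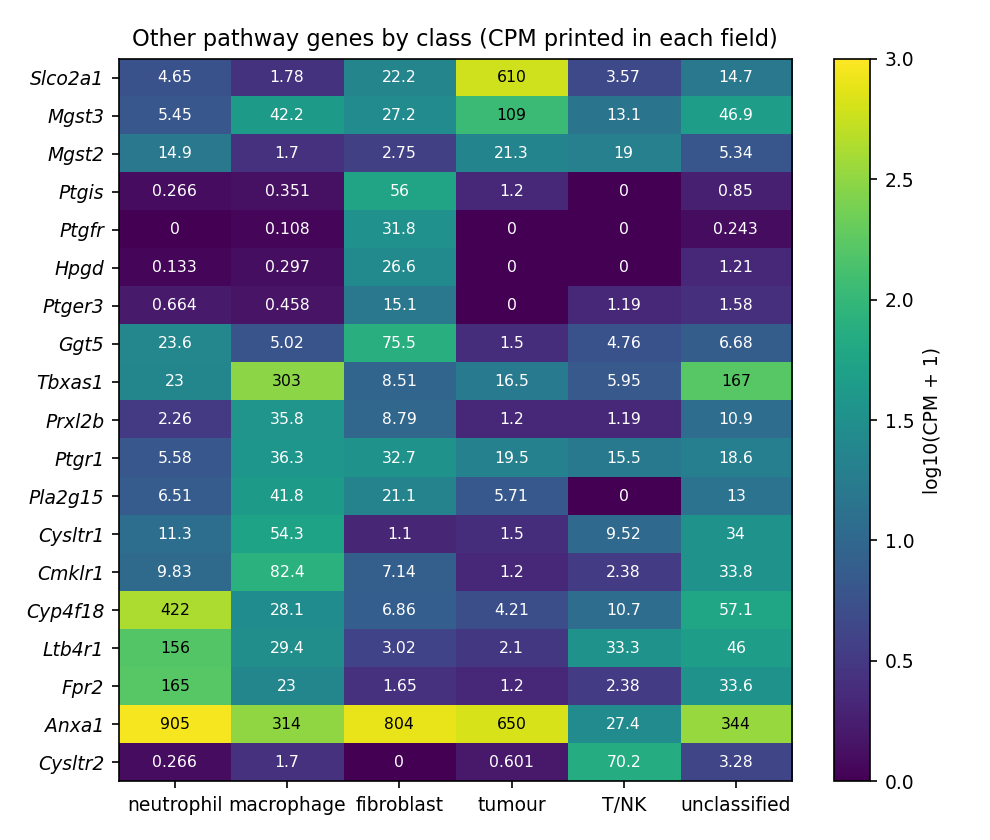
CPM of selected pathway genes outside the 10, at least 2-fold higher in a class with at least 50 UMIs there, by class, coloured by log10(CPM + 1). Slco2a1 stands at 610 in tumour cells, Tbxas1 at 303 in macrophages and Cyp4f18 at 422 in neutrophils.

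The 1760 cells that met no class rule held 18.9% of Ptgs2 and 18.0% of Ptges UMIs. They were a mixture. In a split made after values were seen, 417 of them had 0.5% to 2% of UMIs on the neutrophil genes, and Ptgs2 was at 1220 CPM there. It was at 666 CPM in 1088 further cells and 30.4 CPM in 104 cells with Ctsk and Acp5. The 417 cells held 4.07% of all Ptgs2 UMIs. The 1088 cells held 14.5% of Ptgs2 and 15% of Ptges UMIs, the larger part of both.

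The genes most like each of 9 members were found across 15 subsets with at least 50 cells, by Pearson's r of log2(CPM + 10) among 11088 genes. The subsets share 1 library and differ in depth. Alox5 was most like Wfdc17 (r = 0.97) and Wfdc18 (0.95), a pair of similar genes whose counts are uncertain, and Alox5ap was most like Pirb (0.98), an inhibitory receptor of myeloid cells. Ptgs2 was most like Clec7a (0.92), which encodes the receptor dectin-1, and F10 (0.92), which encodes coagulation factor X. Ltc4s was most like Lyz1 (0.95), whose reads are hard to tell from those of Lyz2, a gene of the macrophage rule. Ptger4 was most like Taok3 (0.94), Ptges like Serf1 (0.92), Hpgds like Pld4 (0.92), Ptgs1 like Tmem273 (0.91) and Ptger2 like Stat6 (0.87) and Tnf (0.85). Among the 10 genes themselves the closest pairs were Alox5 with Alox5ap (0.87) and Ltc4s with Hpgds (0.77). Ptgs1 had r = 0.72 with both Ltc4s and Hpgds, and 0.51 with Ptgs2. These values are descriptions over 15 points.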

How the data were processed

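The deposited table holds raw UMI counts, written by Cell Ranger 8.0.1 per the file headers. The submitters' processing notes name Cell Ranger and STAR. No source used here gives the genome build or annotation. The matrix was taken as the treated library: it held all 10835 treated barcodes that the authors kept and 37 of 11643 control ones. The 2 lists share 33 barcodes. The planned contrast of treated with control was not possible. Genes, lists and class rules were chosen with earlier results of these data known.

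Classes were taken by first match of a share of UMIs: S100a8, S100a9, Csf3r and G0s2 at 2% (neutrophil), Col1a2, Col3a1 and Dcn at 0.5% (fibroblast), Krt8, Krt18, Krt7 and Epcam at 0.1% (tumour), Cd3e, Cd3g, Trbc2 and Ncr1 at 0.1% (T or NK), and C1qa, C1qb, Csf1r, Apoe and Lyz2 at 0.3% (macrophage). No doublet caller was run and free RNA was not subtracted. Values without the 345 cells that met 2 or more rules were computed.

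Genes with at least 20 UMIs were compared (Python 3.11.15, numpy 2.4.6, scipy 1.17.1), with 0.5 counts added for log2 ratios. Thinning to 1000 UMIs left out 915 cells. Other pathway genes were named by ratio, at most 3 per class and role with at least 50 UMIs. Lta4h, Pla2g4a and those of neutrophil subsets were named after their values were seen. Dpep2 is on 2 rows and was left out of ratios. The ratio step was tested on simulated counts. There, unchanged genes were called at least 2-fold higher in 9.48% of cases in T or NK cells and 3.31% in tumour cells. The share was 2.82% in fibroblasts, 1.07% in neutrophils and 0.513% in macrophages. Shares of all genes called in the small classes thus hold more counting error.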

Additional observations from a re-analysis of the deposited data

Results flagged for a closer look

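The 1474 barcodes that the authors' list leaves out, 1097 of them at 20000 UMIs or more, were outside the comparisons and carried each of the 10 genes above the level of 3 counts. Over all of them Ptgs2 was at 169 CPM, Alox5ap at 113, Ltc4s at 41.1, Ptgs1 at 33.1, Ptges at 28.6, Ptger4 at 18.9, Hpgds at 15.5, Alox5 at 6.82, Alox15 at 2.37 and Ptger2 at 2.10. By the class rules 436 of them were tumour cells, 459 macrophages and 242 fibroblasts, so more tumour cells were left out than the 322 kept. In the left-out tumour cells Ptgs2 was at 111 CPM and Ptges at 37.6, against 94.7 and 54.7 in the kept ones. Left-out macrophages had Ptgs1 at 105 CPM, Ltc4s at 138 and Hpgds at 52.3, against 82.1, 107 and 42.7. Whether these barcodes are single cells was not tested.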

How the results depend on the processing

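No paired analysis was possible because each group has 1 library, and no library can be left out. The count of genes at least 2-fold higher in a class was within 1.5 times of its main value under each alternative run in macrophages (4 to 6), neutrophils (2 or 3), fibroblasts and tumour cells. The third neutrophil gene was Ptgs2, at 1.90-fold in the main comparison. In T or NK cells it was 1 in place of 0 with all barcodes of the matrix and 1 with the other classes at equal weight. As a mean over cells the log2 ratio of Ptger2 in T or NK cells was -0.12, where the sum gave 0.60. That of Alox15 in macrophages (3.95) was 3.26 as a mean over cells and 4.64 with all barcodes. Other class ratios shifted too. The log2 ratio of Ptges in tumour cells (1.81) fell to 1.23 with all barcodes. In neutrophils that of Ptgs2 (0.93) was 0.68 with class thresholds doubled and 1.498 with the other classes at equal weight. In macrophages that of Ptgs1 (2.79) was 2.49 with thresholds doubled and 3.11 with all barcodes, and that of Ptger4 (1.35) was 1.11 and 1.83.

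Shares of cells with a UMI depend on depth by construction. Thinned to 500 UMIs, in its highest class the share was 3.27% for Ptgs1, 26.7% for Ptgs2, 2.48% for Ptges, 2.59% for Ptger4, 2.19% for Alox5, 38.5% for Alox5ap, 3.85% for Ltc4s and 2.12% for Hpgds. Thinned to 5000 UMIs (added) it was 25.6% for Ptgs1, 23.3% for Ptges, 22.6% for Ptger4, 0.858% for Alox15, 24.7% for Ltc4s and 15.8% for Hpgds. Without thinning it was 28.9% for Ptgs1, 50.3% for Ptgs2, 32.3% for Ptges, 27.4% for Ptger4, 8.95% for Alox5, 67.5% for Alox5ap, 1.11% for Alox15, 27.9% for Ltc4s and 20.2% for Hpgds. With class thresholds doubled it was 6.80% for Ptgs1, 36.4% for Ptgs2, 62.1% for Alox5ap, 8.20% for Ltc4s and 4.13% for Hpgds. With them halved it was 56.4% for Alox5ap, and with all barcodes 4.71% for Ptger4.

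Subset contrasts kept their sign in each alternative, all added after the data were seen. Between Ccl3 and Retnlg neutrophils the log2 ratio of Ptgs2 (2.45) was 2.13 as a mean over cells, 2.63 without cells near the thresholds and 2.23 in cells that met no second class rule; that of Alox5ap (-2.51) was -2.78 without cells near the thresholds, and that of Alox5 (-1.25) was -0.66 as a mean over cells. Between Cd163 and other macrophages, without cells near the threshold, it was -3.66 for Ptgs2 (-3.29) and 1.88 for Ltc4s (1.58). Against other macrophages, without cells near the threshold, Ptgs2 was 1.98 in the Inhba set (1.85), 1.01 in the Arg1 set (0.85) and 1.31 in the Ccr2 set (1.16; 1.28 as a mean over cells). In the Cx3cr1 set Ptgs1 (1.71) was 1.96 and Hpgds (1.79) 1.98, and as a mean over cells 2.03 and 1.95. The cause of these shifts was not tested.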
